A study of Mus musculus with 24 samples.

Results

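The MHC class II and lysozyme transcripts described here are those of 10 genes, Cd74, H2-Aa, H2-Ab1, H2-Eb1, H2-DMa, H2-DMb1, Ciita, Lyz1, Lyz2 and Ctss, taken by symbol from the 24447 genes of a single-cell count matrix. They were chosen because most of them were higher in cells of CD1d-deficient mice in these same counts, so their difference between genotypes is given as a description and carries no test. The question was whether their transcripts lay in a few cells or were spread over all of them. The cells were NK1.1+CD3e+ cells sorted from perfused livers of C57BL/6 mice aged 8 to 10 weeks, picked by hand one at a time. The mice were wild type (WT), Jα18-deficient, which lack type I NKT cells, or CD1d-deficient, which lack the molecule that presents lipids to NKT cells of both types. Neither deficiency is restricted to a cell type. The WT mice were purchased, whereas the deficient lines came from a laboratory, and no treatment is named for any group. The matrix holds 623 WT, 725 Jα18-deficient and 387 CD1d-deficient cells, 1735 in all. Its values are counts of unique molecular identifiers (UMIs), in which PCR copies of 1 captured transcript count once. The labels list 8 libraries per genotype, but a column name gives only the genotype and a cell number, so the cells of a genotype form 1 pool with no replicates. No p-value was computed. Intervals are exact 95% intervals for counting error, and cover neither mice nor libraries.

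MHC class II molecules display peptides from engulfed material to CD4+ T cells. H2-Aa and H2-Ab1 encode the α and β chains of I-A, and H2-Eb1 the β chain of I-E, whose α chain is not made in C57BL/6 mice. Cd74 is the invariant chain that guides class II molecules to endosomes and blocks their groove, cathepsin S (Ctss) cuts it there, and H2-DMa with H2-DMb1 forms the exchanger that puts peptide in its place. Ciita is the transactivator that switches class II genes on. Lyz1 and Lyz2 encode lysozyme, an enzyme that digests bacterial cell walls, and in mouse liver Lyz2 is best known from Kupffer cells, monocytes and neutrophils. Dendritic cells, B cells and macrophages carry class II constantly, whereas resting mouse T cells are not known to transcribe it.

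Lyz1 and Lyz2 lie side by side on the minus strand of chromosome 10 (NCBIM37, the build called mm9), at 116724852 to 116729924 and 116714390 to 116719377. Their coding sequences of 447 bases were 95.1% identical, with a longest shared run of 118 bases, and their 3′ untranslated regions were 96.3% identical. The stretch from coding base 7 to base 156 holds 15 of the 22 differences, in capitals, and is shown because only reads across such bases can tell the genes apart.
Lyz1: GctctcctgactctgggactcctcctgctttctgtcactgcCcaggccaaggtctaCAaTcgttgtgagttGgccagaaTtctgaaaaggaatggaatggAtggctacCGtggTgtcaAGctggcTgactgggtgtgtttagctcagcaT
Lyz2: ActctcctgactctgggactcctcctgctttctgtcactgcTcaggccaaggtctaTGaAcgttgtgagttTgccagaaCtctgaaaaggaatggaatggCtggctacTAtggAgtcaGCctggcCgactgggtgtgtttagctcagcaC
Reads from identical stretches could be split or dropped by the counting, so both genes are also given as a sum.

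The class II members sit in the MHC on chromosome 17, and 2 of the promoters carried the paired boxes that class II genes are known for. RefSeq promoters (build GRCm38.p6, 250 bases before to 50 after the start site) were found for 7 of the 10 genes, not for Cd74, H2-Ab1 or Ciita. The X box core was searched as ACNGATG and the Y box core as GATTGG on both strands. They were in 9.85% and 16.1% of 32851 mouse promoters. An X core followed by a Y core on the gene strand within 40 bases was in 15 promoters (0.0457%), among them those of H2-Eb1 and H2-DMb1. In the stretch from base −100 to base −31 before the start site, with the gene-strand cores in capitals, the X core began 28 bases before the Y core in H2-Eb1 and 29 bases in H2-DMb1. H2-Aa, shown for contrast, had a Y core and no match to the X core letters in its stretch.
H2-Eb1: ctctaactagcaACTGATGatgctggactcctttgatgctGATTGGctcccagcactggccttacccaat
H2-DMb1: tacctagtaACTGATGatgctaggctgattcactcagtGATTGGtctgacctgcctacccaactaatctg
H2-Aa: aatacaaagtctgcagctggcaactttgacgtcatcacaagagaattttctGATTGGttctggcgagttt
These stretches are chr17:34305767-34305836 and chr17:34153091-34153160 on the plus strand and chr17:34287854-34287923 on the minus strand. A match is a description of letters and says nothing about binding in these cells.

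The pools differed in depth, with 34102694 UMIs in WT, 60484252 in Jα18-deficient and 14536585 in CD1d-deficient cells, and a median of 40467, 46670 and 13508 UMIs per cell. A count of 3 UMIs, the limit that a count of 0 allows, equalled 0.0880, 0.0496 and 0.206 counts per 1000000 UMIs of the pool (CPM). Cells numbering 100, 93 and 160 had under 10000 UMIs, the lower bound stated for the quality filter. The sorted identity was clear in every pool. Cd3d, a subunit of the T cell receptor complex, had a UMI in 98.4%, 99.3% and 96.9% of cells, and the granule protein gene Nkg7 in 100% of cells of each pool. No 2 cells held the same counts. Liver transcripts that a T cell lacks gave the level to read the shares against. Albumin (Alb) was seen in 5.14% of WT cells, in 0.258% of CD1d-deficient cells and in 0 of 725 Jα18-deficient cells, which allows a share of up to 0.414%, and of 4 hemoglobin genes none had a UMI.

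Class II chains and the invariant chain were highest in CD1d-deficient cells, 8.56-fold above WT and 4.36-fold above Jα18-deficient cells when the 4 genes were summed. Lyz1 and Lyz2 together were 6.93-fold and 33.1-fold higher in CD1d-deficient cells than in these pools, while H2-DMa differed by at most 1.12-fold between any pair that included CD1d-deficient cells. Against WT, 7 of the 10 genes were at least 2-fold higher, beside 12.2% of the 9447 genes that had 100 UMIs or more in both pools together, and 0 were 2-fold lower, beside 12.3%. Against Jα18-deficient cells, 8 of the 10 were at least 2-fold higher, beside 9.58% of 10042 genes, and 0 were lower, beside 17.8%. These are the contrasts by which the genes were picked, so nothing is read from the counts. The median log2 ratio of the 10 genes was 2.42 against WT, where that of all tested genes was 0.0066, and 2.10 against Jα18-deficient cells, where it was −0.12.

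**Figure D1:**
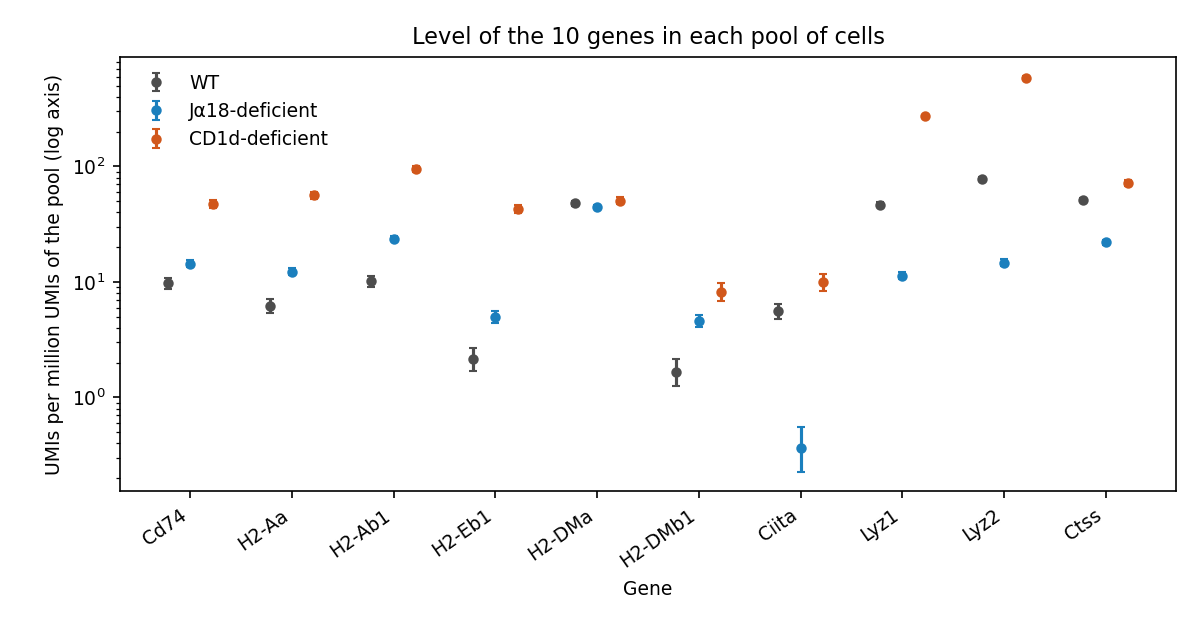
Level of the 10 genes, in CPM of the pool on a log axis, for the pools of WT, Jα18-deficient and CD1d-deficient cells. Points are pool sums and bars are exact 95% Poisson intervals for counting error. CD1d-deficient cells are highest for each gene, and the 3 pools lie close together for H2-DMa, at 44.9 to 50.4.

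H2-Ab1 was counted 345 times in WT, 1433 times in Jα18-deficient and 1384 times in CD1d-deficient cells, which is 10.1 CPM (9.08 to 11.2), 23.7 CPM (22.5 to 24.95) and 95.2 CPM (90.3 to 100.4). H2-Aa stood at 6.25, 12.3 and 56.3 CPM. Cd74 stood at 9.71, 14.4 and 47.5 CPM. All 3 genes kept the order WT, Jα18-deficient, CD1d-deficient, with counting intervals that did not overlap. H2-Eb1, the chain without a partner in this strain, had the steepest rise in level among the class II chains, from 2.14 CPM in WT to 4.96 in Jα18-deficient and 42.4 in CD1d-deficient cells. That is a log2 ratio of 4.31 (3.96 to 4.68) between CD1d-deficient and WT cells. H2-Ab1 and H2-Aa lie tail to tail on opposite strands (34400154 to 34406363 and 34406276 to 34424772 of chromosome 17) and overlap by 88 bases, and whether the counting used strand is not given in the sources used here.

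H2-DMa and Ciita differed from the chains in their order over the pools, and H2-DMb1 had the same order as the chains. H2-DMa was at 48.1 CPM (45.8 to 50.4) in WT, 44.9 CPM (43.2 to 46.6) in Jα18-deficient and 50.4 CPM (46.8 to 54.2) in CD1d-deficient cells, and its log2 ratio between CD1d-deficient and WT cells was 0.07 (−0.06 to 0.20). H2-DMb1, its partner, was sparse, with 57, 278 and 120 UMIs or 1.67, 4.60 and 8.26 CPM, and its CD1d-deficient level was 4.94-fold that of WT. H2-DMb1 shares 95.9% of its coding sequence with H2-DMb2, which had 1, 0 and 0 UMIs. Ciita had 190, 22 and 144 UMIs, or 5.57, 0.364 and 9.91 CPM. Ciita was thus lowest in Jα18-deficient cells, where H2-Ab1 was higher than in WT.

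Lyz2 was counted 2635 times in WT, 887 times in Jα18-deficient and 8551 times in CD1d-deficient cells, at 77.3 CPM (74.3 to 80.3), 14.7 CPM (13.7 to 15.7) and 588.2 CPM (575.8 to 600.8). Lyz1 gave 46.7, 11.3 and 271.5 CPM. Both lysozyme genes were lowest in Jα18-deficient cells, with log2 ratios to WT of −2.40 for Lyz2 and −2.04 for Lyz1. Lyz1 made up 37.7% (36.2 to 39.2) of the lysozyme UMIs in WT, 43.6% (41.1 to 46.1) in Jα18-deficient and 31.6% (30.8 to 32.4) in CD1d-deficient cells. Ctss was at 51.2, 22.04 and 71.4 CPM, the same order as lysozyme over a narrower range.

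Between Jα18-deficient and WT cells, a contrast that did not choose the genes, the class II chains and lysozyme went opposite ways. The summed chains and Cd74 were 1.96-fold higher in Jα18-deficient cells, with a log2 ratio of 0.97 (0.87 to 1.08), and summed lysozyme was 4.77-fold lower. Of the 10 genes, 3 were at least 2-fold higher (H2-Ab1, H2-Eb1 and H2-DMb1), beside 14.0% of 10267 genes, and 4 were at least 2-fold lower (Ciita, Lyz1, Lyz2 and Ctss), beside 7.14%. A single Jα18-deficient cell carried much of the class II rise. It held 596 of the 1433 UMIs of H2-Ab1, 302 of the 873 of Cd74, 264 of the 744 of H2-Aa and 192 of the 278 of H2-DMb1, but 2 of H2-Eb1 and 6 of lysozyme. This cell had 492793 UMIs, with 729 of Cd3d, 6231 of Nkg7, 0 of Cd79a and 10 of Itgax. Without this cell the summed chains and Cd74 stood at 36.4 in place of 55.4 CPM, against 28.2 CPM in WT. With the cell of each pool that held the most UMIs of the 10 genes left out, the log2 ratios of Cd74 and H2-DMb1 to WT turned to −0.020 and −0.23, and those of H2-Ab1 and H2-Aa were 0.49 and 0.35 in place of 1.23 and 0.98. Of the 3 genes at least 2-fold higher, H2-Eb1 alone stayed so, at 1.25. The next highest cell of the pool held 248 UMIs of these 4 genes.

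Most CD1d-deficient cells held a lysozyme UMI, and a minority of the cells of the other pools did. Lyz1 or Lyz2 was seen in 339 of 387 CD1d-deficient cells, or 87.6% (83.9 to 90.7), in 273 of 623 WT cells, or 43.8% (39.9 to 47.8), and in 261 of 725 Jα18-deficient cells, or 36.0% (32.5 to 39.6). A UMI of Cd74, H2-Aa, H2-Ab1 or H2-Eb1 was in 81.1%, 27.4% and 37.4% of these cells. The CD1d-deficient cells were the shallowest, so these shares were also computed for cells thinned to 10000 UMIs, which left out the shallower ones and kept 227 CD1d-deficient, 523 WT and 632 Jα18-deficient cells. The thinned shares were 95.01%, 33.9% and 15.7% for lysozyme and 75.2%, 16.6% and 19.05% for the chains and Cd74. For the hepatocyte list they were 10.7%, 11.6% and 9.89%, and without thinning 17.8%, 21.0% and 20.6%. The WT share of the chains and Cd74 thus lay little above that of the list. H2-DMa, by contrast, had a UMI in 122 CD1d-deficient, 123 WT and 146 Jα18-deficient cells, and after thinning in 18.9%, 11.2% and 8.54%. H2-DMb1 and Ciita, at 4.65% and 2.25% of WT cells, were below the share of Alb there, so those shares are not read as expression. H2-Eb1 was above Alb but below Trf in WT cells, at 8.67% against 8.99%. In Jα18-deficient cells H2-Eb1 was at 14.9% against 15.6% for Trf.

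Whether a transcript was spread over the cells was read from a simple count. If the UMIs of a gene had fallen on the cells of a pool in proportion to their depth, 376 CD1d-deficient cells would have held a UMI of Lyz2, and 311 did. In WT, 510 cells would have held one and 246 did, and in Jα18-deficient cells 377 would have and 224 did. For H2-Ab1 the counts were 247 of 271 in CD1d-deficient, 121 of 226 in WT and 201 of 458 in Jα18-deficient cells. Cd3e, a T cell receptor subunit, reached 89.2% to 99.0% of its count in the 3 pools. In WT and Jα18-deficient mice, Lyz1, Lyz2, Cd74, H2-Aa and H2-Ab1 were therefore in fewer cells than an even spread would give. In CD1d-deficient mice they came closer to that number. H2-Eb1 differed, at 82.3% of its count in WT, 53.1% in Jα18-deficient and 81.1% in CD1d-deficient cells. Where an even spread reaches almost every cell, as for Lyz2 in CD1d-deficient cells, the count cannot show how UMIs were shared. In that pool 35 of 387 cells held 50% of the Lyz2 UMIs.

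H2-DMa and Ciita were concentrated in few cells in every pool. In WT, 123 cells held H2-DMa where an even spread gives 459, and 12 cells held 50% of its 1639 UMIs. In Jα18-deficient cells 7 cells held 50% of 2716 UMIs, with up to 300 in 1 cell. In CD1d-deficient cells 7 cells held 50% of 733 UMIs, but 122 cells held H2-DMa where an even spread gives 219. Ciita was in 14 WT, 8 Jα18-deficient and 23 CD1d-deficient cells, and 1 WT cell held 95 of the 190 UMIs. Lyz2, with 2635 UMIs in WT, needed 39 cells for 50% of them, and its highest cell held 3.07%. Beside the few cells with most of the UMIs, 65 of the 123 WT cells with H2-DMa and 7 of the 14 with Ciita held a single UMI. H2-DMb1 was concentrated in Jα18-deficient cells, where 1 cell held 69.1% of its UMIs, and spread in CD1d-deficient cells, where 73 cells held it at up to 5 UMIs each.

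**Figure D2:**
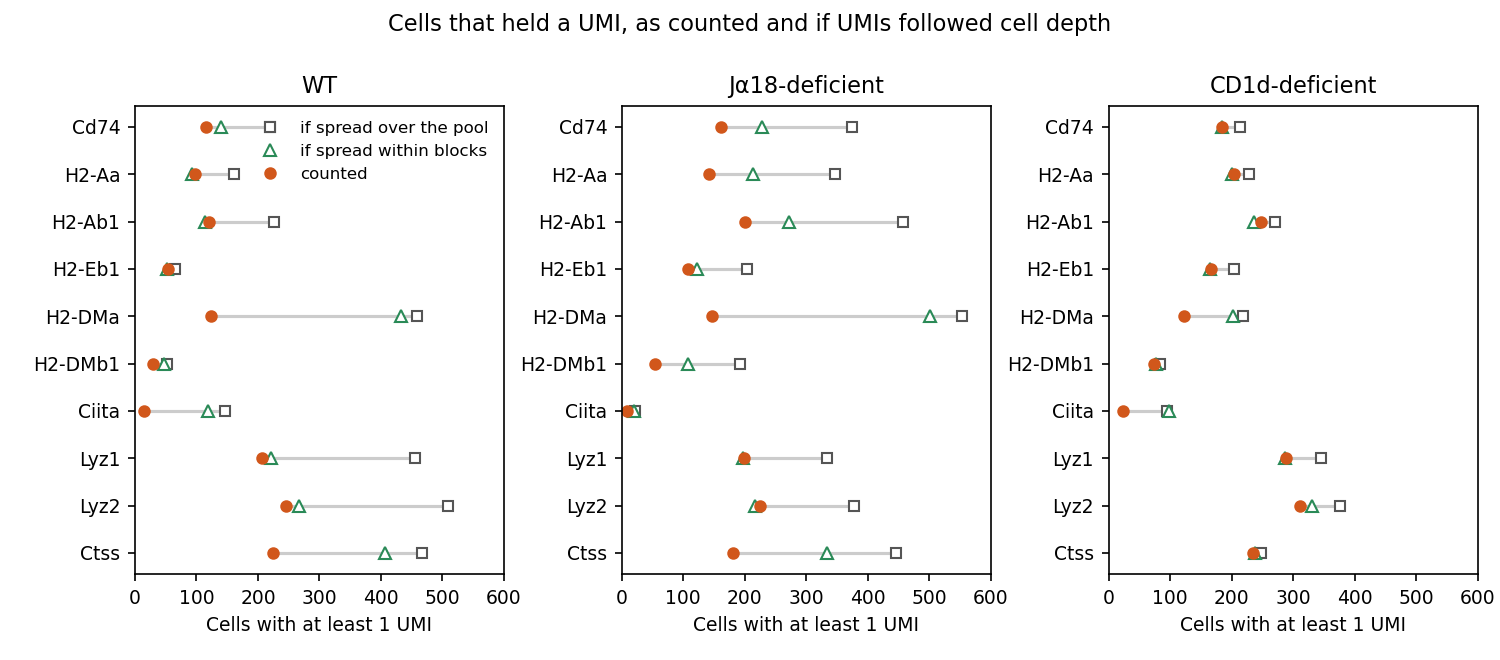
Number of cells with at least 1 UMI of each gene in the 3 pools. Filled circles are counted cells, squares the number if the UMIs of the pool had followed cell depth, and triangles the number if they had followed depth within each block of 96 cell numbers; for Lyz2 in WT these are 246, 510 and 267 cells, and for H2-DMa 123, 459 and 434.

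The cells that did hold lysozyme were not scattered through a pool. The cell numbers in the column names run up to 768 in each pool, which is 8 times 96, and changes in lysozyme detection fell at multiples of 96. The cells were therefore described in blocks of 96 consecutive numbers, a choice made after the values were seen. The sources do not tie a cell number to a library, mouse or plate, and the blocks are not called by any of these names. Of the 24 blocks, 23 held at least 20 cells, and the seventh CD1d-deficient block (numbers 577 to 672) held 6 and is left out of the ranges. In WT, lysozyme had a UMI in 2.35%, 8.33%, 2.08%, 49.4%, 33.3%, 100%, 100% and 87.1% of the cells of blocks 1 to 8. In Jα18-deficient cells the shares were 74.7%, 98.9%, 20.2%, 89.0%, 0%, 0%, 8.60% and 0%. In CD1d-deficient cells they were 100% in blocks 1 to 4, then 91.04%, 57.4% and 65.3% in blocks 5, 6 and 8. Every genotype thus had blocks in which nearly every cell held lysozyme, and WT and Jα18-deficient cells also had blocks in which almost none did.

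Level followed the same blocks. Lysozyme stood at 0.513, 5.07, 0.554, 41.4, 109.3, 264.7, 502.0 and 63.4 CPM in the WT blocks. In the Jα18-deficient blocks it stood at 17.5, 97.9, 2.47, 38.1, 0, 0, 2.08 and 0 CPM. In the CD1d-deficient blocks other than the seventh it stood at 1769, 1618, 452.5, 476.0, 471.9, 188.1 and 299.5 CPM. Each CD1d-deficient block was above each Jα18-deficient block, while 2 of 7 were above each WT block, since WT block 7 exceeded 5 of them. The 3 Jα18-deficient blocks at 0 held 92, 89 and 93 cells with median depths of 31844, 24181 and 27335 UMIs, deeper than CD1d-deficient blocks 5, 6 and 8 at 8908, 5786 and 5055.

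**Figure D3:**
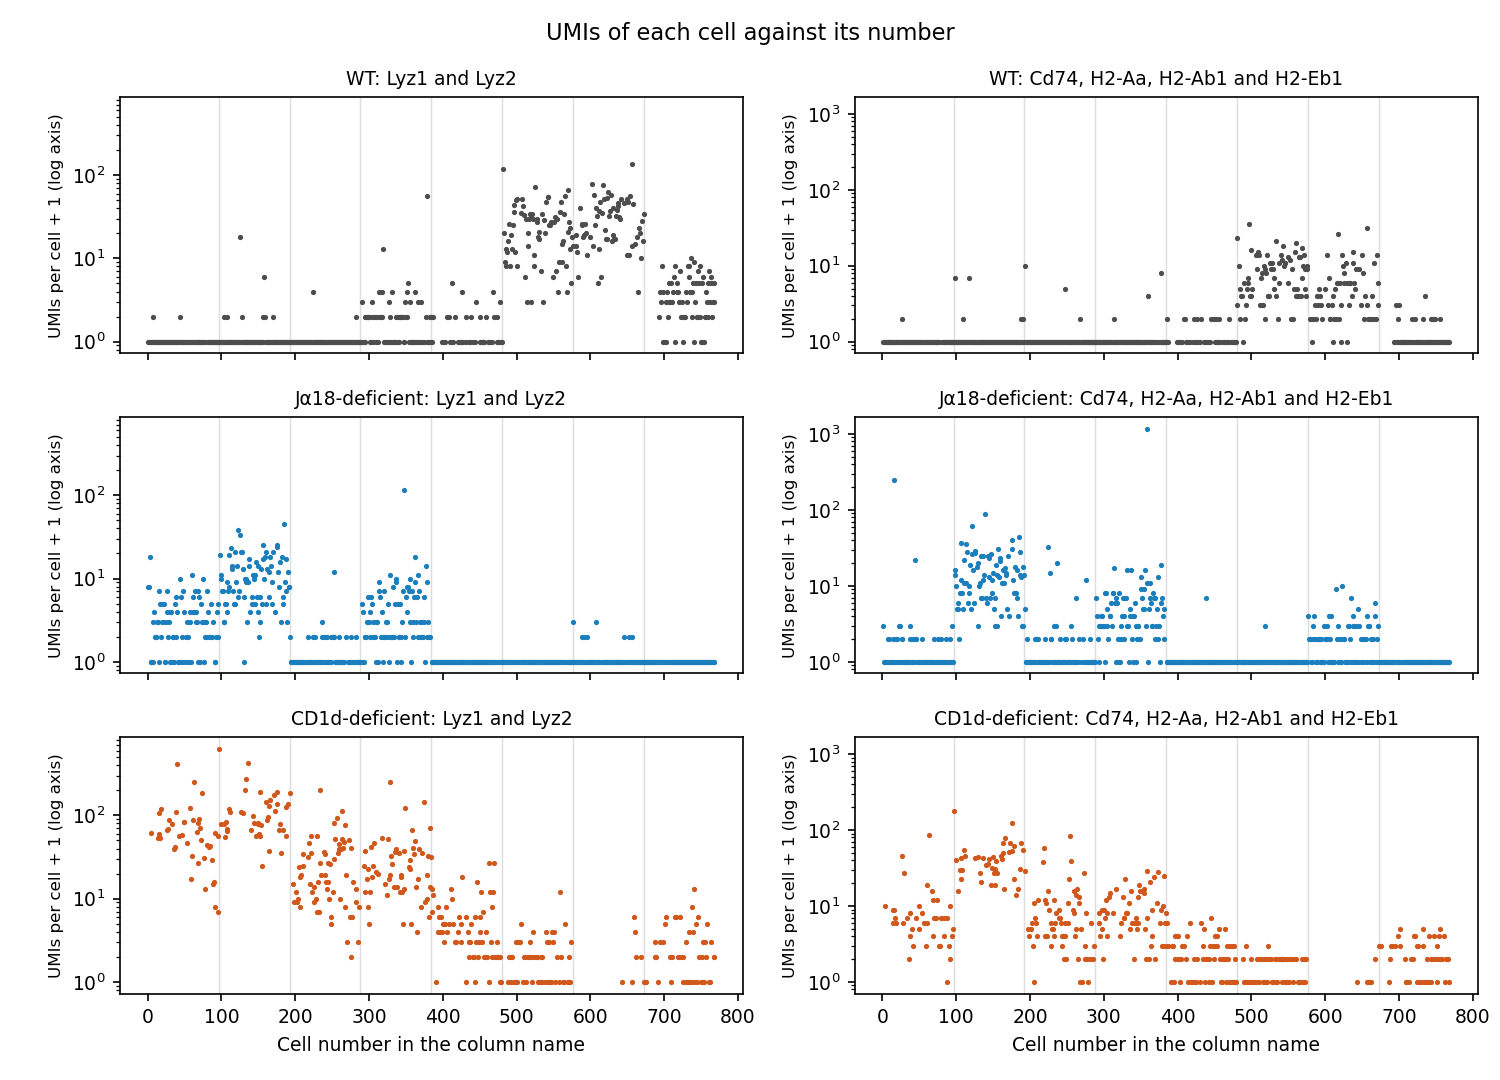
UMIs of lysozyme (left) and of Cd74, H2-Aa, H2-Ab1 and H2-Eb1 (right) in each cell, plus 1 and on a log axis, against the number in the name of the cell. Each dot is a cell and vertical lines mark multiples of 96; WT numbers 481 to 672 form a raised band in which 100% of cells hold lysozyme, and Jα18-deficient numbers 385 to 576 and 673 to 768 hold none.

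Class II transcripts were detected in blocks that overlapped those of lysozyme. The share of cells with a UMI of a chain or Cd74 was 98.7% and 93.8% in WT blocks 6 and 7, and 1.18% to 25% in the other 6. Among Jα18-deficient blocks it was 100% in block 2 and 89.0% in block 4, and 0% to 1.12% in blocks 5, 6 and 8. In the 7 CD1d-deficient blocks it ran from 48.1% to 100%. Of the 8 blocks in which at least 90% of cells held lysozyme, 7 also had class II UMIs in at least 90%, and the other in 70.1%. In the 5 blocks with lysozyme in at most 5% of cells, class II was in at most 3.12%. In the other 10 blocks class II was in 3.45% to 89.0% of cells, and several held mostly one of the sets. Jα18-deficient block 7 had class II UMIs in 56.99% of cells and lysozyme in 8.60%. The opposite was seen in WT block 8 (15.7% against 87.1%), WT block 4 (3.45% against 49.4%) and Jα18-deficient block 1 (26.4% against 74.7%). WT block 5 was shallow, with a median of 4508 UMIs per cell, and its class II share of 25% went with 56.8 CPM, against 82.5 and 79.1 CPM in blocks 6 and 7.

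H2-Ab1 and H2-Aa stayed apart between CD1d-deficient and WT cells block by block. For H2-Ab1 the 7 CD1d-deficient blocks ranged from 41.8 to 231.5 CPM with a median of 57.8, and the 8 WT blocks from 0 to 30.6 with a median of 1.20. For H2-Aa they ranged from 20.9 to 126.6 CPM and from 0 to 20.6 CPM. The lowest CD1d-deficient and the highest WT block thus differed by little for H2-Aa, and rested on 7 and 81 UMIs. The block ranges of these 2 genes did not overlap in this contrast and those of the other 8 did, beside 0.561% of the 9447 genes with each CD1d-deficient block above each WT block and 0.423% with each below. Against Jα18-deficient cells, 3 of the 10 (Ciita, Lyz1 and Lyz2) had each CD1d-deficient block above each other block, beside 0.289% of 10042 genes, and none below, beside 0.408%. Both contrasts had picked the genes. Between Jα18-deficient and WT cells all 10 ranges overlapped, beside 0.487% and 0.224% of 10267 genes with all blocks apart in the higher and the lower direction. The blocks are parts of 1 pool and their number is no number of mice.

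**Figure D4:**
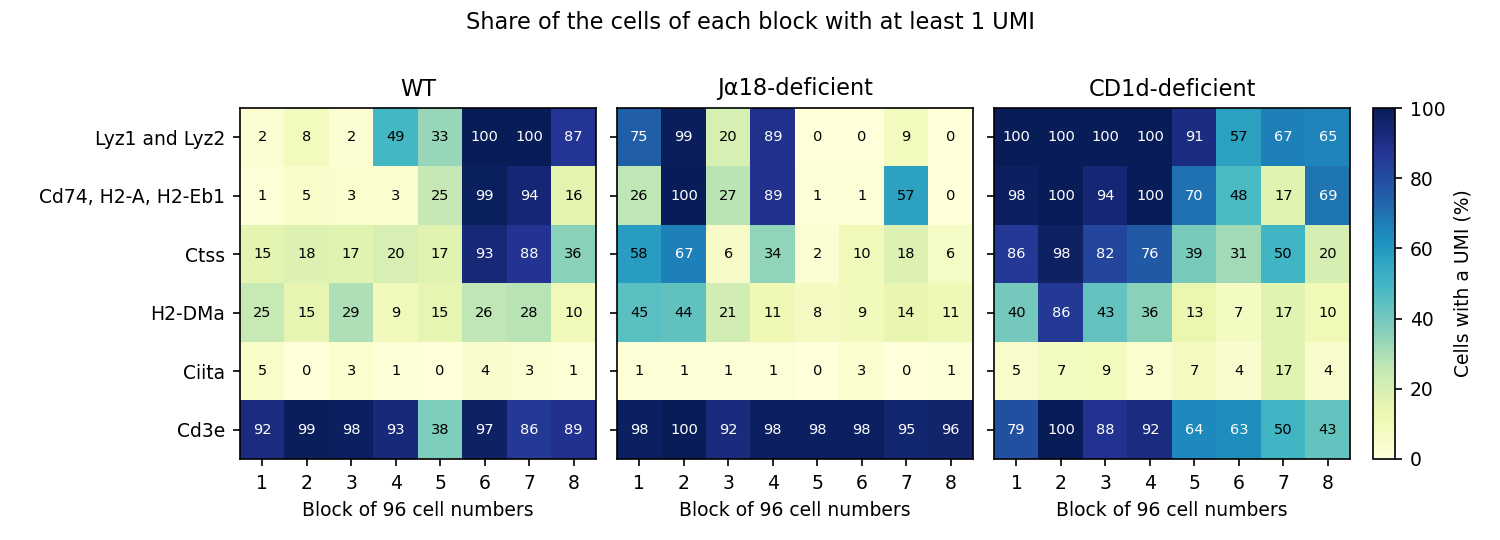
Percent of the cells of each block of 96 cell numbers with at least 1 UMI, for lysozyme, the chains with Cd74, Ctss, H2-DMa, Ciita and the T cell gene Cd3e in the 3 pools. Lysozyme ranges from 2.08% to 100% between WT blocks and from 0% to 98.9% between Jα18-deficient blocks, Ciita stays at or under 8.96% in blocks of at least 20 cells, and Cd3e from 37.5% to 100%; CD1d-deficient block 7 has 6 cells.

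Within blocks, lysozyme and the chains were in nearly as many cells as depth allowed, apart from the chains in Jα18-deficient cells. This counts cells with a UMI, so where every cell has one it cannot show how evenly the UMIs were shared. In CD1d-deficient block 2, all 42 cells held lysozyme, and 1 of them held 624 of the 5059 UMIs. If UMIs had followed depth within each block and not across the pool, 267 WT, 217 Jα18-deficient and 330 CD1d-deficient cells would have held Lyz2, and 246, 224 and 311 did. For H2-Ab1 the numbers were 114, 271 and 236 against 121, 201 and 247 counted. H2-Aa in Jα18-deficient cells fell short, with 142 cells of 213, and the single cell with 264 of its UMIs lies in block 4 of that pool. Lyz1 reached 93.2%, 100.3% and 100.5% of its number within blocks in WT, Jα18-deficient and CD1d-deficient cells, where it had reached 45.2%, 59.4% and 83.8% over the pools. The chains with Cd74 reached 90.7%, 78.0% and 103.8%. Most of the shortfall of Lyz1 and Lyz2 against an even spread thus lay between blocks, and Lyz2 in CD1d-deficient cells still reached 94.2% of its number within blocks.

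For H2-DMa and Ciita, counting within blocks changed the pool numbers little, but the share of cells with H2-DMa differed between blocks. H2-DMa was in 85.7% of the cells of CD1d-deficient block 2, or 36 cells where depth within the block gives 39.6. It was in 45.1% and 43.7% of the cells of Jα18-deficient blocks 1 and 2, and in 7.61% of block 5. H2-DMa reached 28.4%, 29.1% and 60.3% of its number within blocks, against 26.8%, 26.4% and 55.7% over the pools, and its block levels of 14.9 to 81.9 CPM were never at 0. Ciita reached 11.8%, 40.0% and 23.3% within blocks. Ctss lay between the groups, at 55.1% in WT, 54.1% in Jα18-deficient and 98.3% in CD1d-deficient cells. In WT blocks 6 and 7, 93.4% and 87.7% of cells held Ctss, and in the other WT blocks 15.3% to 35.7%. H2-DMa and the class II chains, known to be transcribed together in antigen-presenting cells, differed here in how they lay over the cells. H2-DMb1 had its highest shares in class II blocks, at 64.3% of cells in CD1d-deficient block 2, 46.0% in Jα18-deficient block 2 and 25% in WT block 6, and reached 61.3%, 49.98% and 95.1% within blocks.

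The number of lysozyme UMIs in a cell rose less than its depth. In the 8 blocks with lysozyme in at least 90% of cells, the cells were split at the median depth, and the deeper cells had 4.34 times the UMIs of the shallower ones, as the median over blocks. Lysozyme UMIs were higher in the deeper cells by a median of 2.39 times, within 1.17 to 3.57, and were below the depth ratio in 8 of 8 blocks. The chains and Cd74 were higher by 2.94 times and below the depth ratio in 8 of 8 blocks, and Cd3e by 3.27 times and below it in 5 of 8. In CD1d-deficient block 1, with the lowest ratio, the shallower cells held 66.5 lysozyme UMIs each at a mean depth of 16870 and the deeper cells 77.7 at 65646. Lysozyme was there at 3945 CPM in the shallower and 1184 CPM in the deeper cells.

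Ratios between the genes were steadier for the pair of lysozymes than for class II. Lyz1 was 28.6% to 46.4% of lysozyme UMIs over 14 blocks with enough of them, within 28.6% to 38.1% in CD1d-deficient, 32.03% to 39% in WT and 42.4% to 46.4% in Jα18-deficient blocks. The chains and Cd74 were 6.98% to 79.3% of class II and lysozyme UMIs together over the same blocks. Within the chains and Cd74, H2-Ab1 gave 28.7% to 51.5% of the UMIs over 13 blocks with at least 50 of them, and H2-Eb1 1.296% to 40.7%. H2-Eb1 was at its lowest share in Jα18-deficient block 4, which held the single cell with 1164 UMIs, and at its highest in block 7 of that pool, the block with class II and almost no lysozyme. The proportions of class II to lysozyme, and of H2-Eb1 to the other chains, thus differed from block to block by far more than the proportion of the lysozymes.

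Cells with much class II or lysozyme were few outside the CD1d-deficient pool. At a limit of 1000 CPM of the cell, the chains and Cd74 were high in 1 WT, 6 Jα18-deficient and 12 CD1d-deficient cells. Lysozyme was high in 20 WT, 5 Jα18-deficient and 111 CD1d-deficient cells, the last being 28.7% (24.2 to 33.5) of that pool and holding 66.2% of its lysozyme UMIs. Of the 12 CD1d-deficient cells high in class II, 11 were also high in lysozyme, which is 91.7% of the first set and 9.91% of the second. The limit cuts a range and not a cell type, since 59 CD1d-deficient cells lay within 30% of the lysozyme limit, and in a shallow cell 3 UMIs passed it. In the cells high in either set, the 10 genes of T and NK1.1 identity stood at 8580, 17517 and 11271 CPM in the 3 pools, against 10218, 12221 and 13133 CPM in the other cells. Single genes of the list differed more. Klrb1c, which encodes NK1.1, stood at 967.5 against 952.1 CPM in CD1d-deficient and 287.7 against 874.8 CPM in Jα18-deficient cells, and the adhesion receptor gene Cd2 at 368.9 against 730.9 CPM in CD1d-deficient cells. The Jα18-deficient values describe mostly 1 of 9 high cells, the one with 492793 UMIs. It held 9402 of their 10961 UMIs of identity genes and 90 of their 180 of Klrb1c. Macrophage or Kupffer cell markers stood at 238.9 against 9.09 CPM in WT, 9.59 against 10.8 CPM in Jα18-deficient and 49.8 against 21.2 CPM in CD1d-deficient cells. The WT value rests on 81 UMIs in 20 high cells and the Jα18-deficient value on 6 UMIs. Of the 19 WT UMIs of Clec4f, which was in 3 WT cells, 17 were in the high cells. Monocyte or neutrophil markers stood at 129.8 against 62.8, 31.96 against 56.9 and 181.2 against 72.7 CPM. Dendritic cell markers stood at 82.6 against 38.7, 33.6 against 78.4 and 140.8 against 137.6 CPM. B cell markers stood at 8.85 against 8.91, 11.2 against 17.2 and 17.1 against 30.0 CPM. The part of these cell types in the high cells was not tested. Outside the 111 cells, lysozyme was still 406.2 CPM in CD1d-deficient cells, against 109.9 CPM in WT cells below the limit. Without the cells high in either set, the log2 ratio of Lyz2 between CD1d-deficient and WT cells was 1.97 in place of 2.93, that of H2-Ab1 2.65 in place of 3.23, and that of Ctss −0.28 in place of 0.48.

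Summed markers of cells that carry class II or lysozyme were highest in CD1d-deficient cells for each of 4 lists. In WT the dendritic and monocyte lists exceeded the 28.2 CPM of the chains with Cd74. The summed macrophage or Kupffer cell list of 12 genes was at 11.4 CPM in WT, 10.8 CPM in Jα18-deficient and 29.4 CPM in CD1d-deficient cells, with block ranges of 0.138 to 29.5, 0 to 30.2 and 10.1 to 62.4 CPM. The scavenger receptor gene Marco and the Kupffer cell receptor gene Timd4 were at 0 in all pools, and Cd68 and Csf1r led the list with 194 and 133 UMIs in CD1d-deficient cells. Clec4f of the same list had 19, 20 and 3 UMIs in the 3 pools, in 3, 1 and 3 cells, and C1qa had 22, 35 and 11 UMIs. Csf1r, the receptor for macrophage growth factor, reached 104.0%, 100.2% and 92.7% of its number within blocks. The monocyte or neutrophil list of 12 genes was at 63.5, 56.6 and 103.7 CPM, in blocks from 21.3 to 196.4 CPM. Of this list, Ms4a6c held 1536 of the 2166 WT UMIs and stood at 45.0, 17.9 and 43.3 CPM. Lst1 stood at 8.03, 14.2 and 34.9 CPM, and Cxcr2 at 5.19, 19.9 and 8.67 CPM. The neutrophil genes S100a9 and Retnlg were at 0 in all pools, and S100a8 had 0, 61 and 1 UMIs, the 61 in 1 cell. The dendritic cell list of 11 genes was at 39.1, 77.9 and 138.5 CPM, in blocks from 15.9 to 234.7 CPM, with Flt3, Clec9a and Fscn1 at 0 throughout. Itgax and Xcr1 made up most of it, and 40 to 158 cells of a pool held Itgax. Itgax alone stood at 8.42 CPM in WT, 34.97 CPM in Jα18-deficient and 83.03 CPM in CD1d-deficient cells. Xcr1 stood at 29.0, 34.01 and 41.96 CPM. The paper lists qPCR primers for Itgax beside those for Cd8a and Cd244, genes of its CD1d-independent NKT subset C1. Whether the Itgax UMIs came from NKT cells or dendritic cells was not tested. The B cell list of 12 genes was at 8.91, 17.1 and 26.3 CPM, in blocks from 0.595 to 69.2 CPM, with 43, 22 and 13 UMIs of Cd79a. The part of these cells in the class II and lysozyme levels was not tested.

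Alb did not share the block pattern of lysozyme in WT cells, and lists of tissue cell genes are given beside it. Apoe is on none of these lists and is described with the other observations. The hepatocyte list of 10 genes was at 37.3, 25.3 and 29.4 CPM, in blocks from 1.56 to 129.2 CPM, and reached 38.5%, 35.5% and 39.2% of its number within blocks. Of the 224 WT UMIs of Alb, 205 were in block 2, where lysozyme was in 8.33% of cells, and Alb had 1 and 0 UMIs in blocks 6 and 7. The liver endothelium list of 8 genes was at 4.28, 3.67 and 11.4 CPM, in blocks from 0 to 32.8 CPM, with Kdr, Oit3 and Stab1 at 0 in all pools. It reached 61.4%, 31.6% and 66.5% of its number within blocks. The red cell list of 5 genes held 7, 0 and 0 UMIs. T and NK1.1 identity genes differed little between blocks, at 9549 to 10963 CPM in WT, 10507 to 14110 CPM in Jα18-deficient and 11159 to 13466 CPM in CD1d-deficient blocks.

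The wider class II pathway, 20 genes of proteolysis, regulation and costimulation, did not rise as a group with the chains. Summed, it stood at 1337 CPM in WT, 1437 CPM in Jα18-deficient and 1378 CPM in CD1d-deficient cells, with block levels from 1208 to 1747 CPM. Between CD1d-deficient and WT cells, 4 of the 14 genes that reached 100 UMIs were at least 2-fold higher, beside 12.2% of all genes, and 1 was lower, beside 12.3%, with a median log2 ratio of −0.0031. The higher ones were Lgmn (1.91), a protease that acts on the invariant chain, the cathepsins Ctsh (1.94) and Ctsl (1.16), and Rfxap (1.24), a subunit of the factor that binds the X box, each given as a log2 ratio. Cd83, a protein of activated antigen-presenting cells, was lower at −4.51, with 3 UMIs in CD1d-deficient and 160 in WT cells. Rfx5 and Rfxank, the partners of Rfxap, had log2 ratios of −0.06 and 0.05. Between Jα18-deficient and WT cells, 5 of 17 genes were at least 2-fold higher, beside 14.0% of all genes, and 2 were lower, beside 7.14%. The higher ones were Cd86 (2.85), H2-Ob (2.64), Rfx5 (1.92), Rfxap (1.38) and Rfxank (1.29). The lower ones were Cd83 (−1.96) and Ctsh (−1.37). Ifi30, a reductase of the endosome, had a log2 ratio of 0.08 between CD1d-deficient and WT cells.

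The genotypes differ in which NK1.1+ T cells they hold, so levels were also read within classes of cells. Cells with a UMI of Cd8a or of a Klra gene, which encode Ly49 receptors, numbered 329 of 623 in WT, 679 of 725 in Jα18-deficient and 353 of 387 in CD1d-deficient mice. In these cells lysozyme was at 96.4, 26.3 and 868.4 CPM and the chains with Cd74 at 26.0, 56.2 and 245.4 CPM. In the 294, 46 and 34 cells with neither, lysozyme was at 172.7, 12.1 and 610.3 CPM and the chains with Cd74 at 32.1, 17.7 and 130.2 CPM. The order of the pools in lysozyme was the same in both classes, while that of WT and Jα18-deficient cells in the chains was not, with 22 UMIs in the 46 Jα18-deficient cells. Within blocks, lysozyme levels of both classes lay within 2-fold of each other in 4 of the 8 blocks with at least 10 cells of each. In WT block 4 they were 16.01 CPM in cells with and 84.1 CPM in cells without these genes.

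The class II and lysozyme genes were among the genes most like each other over the cells of a pool. Pearson's r of log counts per 10000 between the summed chains with Cd74 and summed lysozyme was 0.64 in WT, 0.58 in Jα18-deficient and 0.50 in CD1d-deficient cells. It is a description over 623, 725 and 387 cells that share blocks and libraries. Among 7149 genes in CD1d-deficient cells, the 10 most like the summed chains with Cd74 began with those 4 genes, which are parts of the sum. Then came Lyz2 (0.49), Lyz1 (0.47), Ifitm2 (0.40), Ifitm3 (0.31), Cd68 (0.29) and Lgals3 (0.28). H2-DMa, H2-DMb1, Ciita and Ctss were not among the 10. The 5 most like Lyz2 were Lyz1 (0.70), Ifitm3 (0.51), Ifitm2 (0.49), Sfpq (0.44) and Wfdc17 (0.44). Ifitm2 and Ifitm3 encode membrane proteins induced by interferon. Sfpq encodes a splicing factor. In WT the nearest to the summed chains that were not chains, Cd74 or lysozyme were Apoe (0.62) and Ifitm2 (0.49), and in Jα18-deficient cells Apoe (0.52), H2-DMb1 (0.48) and C1qb (0.46).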

How the data were processed

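NK1.1+CD3e+ liver cells were sorted, picked singly and sequenced with UMIs. The deposited matrix holds UMI counts per gene and cell, which the authors made by trimming with cutadapt 1.15, aligning to mm9 with TopHat2 2.0.12, removing duplicates and counting with HTSeq 0.10.0, per the labels and methods. The counts are not normalized, and cells under the stated 10000 UMIs are present. Columns were grouped by the genotype in their names, and 0 columns were left unused.

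Counts were summed per pool and scaled to CPM of the pool. Sums were given exact Poisson and shares exact Clopper-Pearson 95% intervals (scipy 1.17.1, Python 3.11.15), and ratios the exact interval of one count given the sum of both. PCR and mouse-to-mouse error is not covered. A share after thinning is the mean chance that a cell keeps at least 1 UMI when 10000 of its UMIs are drawn, and the number of cells under an even spread follows from the Poisson formula, and both were tested on simulated data. With 1 pool per genotype no test was run. Ratios were called at 2-fold among genes that reached 100 UMIs over both pools. Positions are from GENCODE M1 on NCBIM37, and lysozyme sequences from its transcripts; Ciita has a second, shorter entry there.

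Each of the 10 members is named, list genes with at least 10 UMIs in high cells (at most 4 per list), and the genes of highest r among those with a UMI in at least 20 cells. Other names were chosen after their values were seen. Members and lists were chosen with earlier results of these data known. Alternatives were edgeR 4.0.16 TMM factors, DESeq2 1.42.0 size factors, the mean CPM of cells, the stated filter, cells left out, other thinning depths, limits and minimums and, added after seeing the data, the median over blocks. Lyz proteins were not used here.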

Additional observations from a re-analysis of the deposited data

How the results depend on the processing

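No paired analysis was possible because the columns carry no library number, so the fit with a replicate block was not run. Summed over the 10 genes, the log2 ratio of CD1d-deficient to WT cells was 2.26, and became 2.20 with TMM factors, 2.15 as the mean CPM of cells, 1.45 without cells high in class II or lysozyme and 2.53 as the median over blocks, which was chosen after seeing the data. That of Jα18-deficient to WT cells was −0.76, and became −0.87 with TMM factors, −0.87 with DESeq2 size factors, −0.92 as the mean of cells, −0.93 without the cell of each pool with the most UMIs of the genes and −0.94 without high cells. That of CD1d-deficient to Jα18-deficient cells was 3.02, and became 3.07 with TMM factors, 3.10 with size factors, 3.07 as the mean of cells, 3.18 without the top cells, 2.39 without high cells and 3.25 over blocks. Directions turned for single genes alone. Between Jα18-deficient and WT cells these were Cd74 (−0.020 without the top cells, −0.0057 without high cells), H2-DMb1 (−0.23 and −0.36), H2-Eb1 (−0.19 over blocks) and H2-DMa (0.18 as the mean of cells). Between CD1d-deficient and WT cells they were H2-DMa (−0.0037 without high cells, −0.015 over blocks) and Ctss (−0.28 without high cells). The cause was not tested, other than the 1 Jα18-deficient cell named above.

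The share of cells with a UMI of any of the 10 genes after thinning to 10000 UMIs was 50.1% in WT, 36.2% in Jα18-deficient and 97.8% in CD1d-deficient cells. It was 42.6%, 27.4% and 91.9% at 5000 UMIs, 55.6%, 45.8% and 99.96% at 20000 UMIs, and 64.4%, 58.1% and 95.3% without thinning. For at least 2 UMIs without thinning it was 45.2% in Jα18-deficient and 88.6% in CD1d-deficient cells. Cells high in class II fell from 1, 6 and 12 to 0, 1 and 0 at 3000 CPM, to 0, 0 and 0 at 10000 CPM and to 0, 3 and 7 within the stated filter. Cells high in lysozyme fell from 20, 5 and 111 to 5, 0 and 22 at 3000 CPM and to 0, 0 and 1 at 10000 CPM.

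With 1 pool per genotype, the spread between mice or libraries is unknown. Lysozyme ranged from 0.513 to 502.0 CPM between WT blocks, against 26.0 to 859.7 CPM between pools. Depth limits WT block 5 and CD1d-deficient blocks 5, 6 and 8, where a lysozyme or class II UMI can be missed in a cell.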

Other observations

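The blocks of cell numbers were searched for other genes with the pattern of lysozyme. Of the genes in the matrix, 639 were detected in 90% or more of cells in some block of at least 20 cells, and 14 of these in 5% or fewer in another. The 14 were 7 of the 10 described genes (Cd74, H2-Aa, H2-Ab1, H2-Eb1, Lyz1, Lyz2 and Ctss) and Apoe, Ifitm2, Ifitm3, Wfdc17, Lst1, Akap5 and Klra7. Ctss, Akap5 and Klra7 were at 5% or fewer in only 1 block each. These shares were not adjusted for depth, which differs between blocks, nor for the genotype of a block. Apoe, an apolipoprotein made by macrophages and hepatocytes, was in at least 90% of cells in 5 blocks and at most 5% in 6, and Ifitm3 in 4 and 6. Apoe stood at 33.2 CPM in WT, 28.9 CPM in Jα18-deficient and 110.3 CPM in CD1d-deficient cells. It reached 90.02%, 95.7% and 100.9% of its number of cells within blocks, against 45.6%, 51.7% and 104.0% over the pools. In Jα18-deficient block 4 it was in 97.8% of cells and in blocks 5 to 8 in 0% to 3.23%. The macrophage genes Lst1 and Wfdc17 reached 90.5% and 92.9% of the cells of their highest block. Klra7, a Ly49 receptor gene of NK1.1+ cells, ranged from 4.17% to 93.4%.

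C1qb, a complement gene of macrophages, stood at 0.117 CPM in WT, 2.02 CPM in Jα18-deficient and 1.44 CPM in CD1d-deficient cells, and was in 60.9% of the cells of its highest block, a Jα18-deficient one. Xcr1, a dendritic cell chemokine receptor gene, stood at 29.0, 34.01 and 41.96 CPM, and 1 CD1d-deficient cell held 63.1% of those of its pool.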
